A study of Danio rerio with 11 samples.

Results

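The receptors through which intraspinal serotonergic neurons (ISNs) of the zebrafish can sense monoamines and neuropeptides, their own serotonin included, were described in RNA-seq libraries of sorted ISNs. The members were chosen by gene name alone, as every gene ID whose name belongs to the serotonin (htr), dopamine (drd), alpha- and beta-adrenergic (adra1, adra2, adrb1 to adrb3), histamine (hrh), opioid and nociceptin (opr), somatostatin (sstr), neuropeptide Y (npy), galanin (galr), tachykinin (tacr), corticotropin-releasing hormone (crhr), melanocortin (mc1r to mc5r), adenosine (adora), cannabinoid (cnr1) or urotensin 2 (uts2r) receptors. This rule took 97 of the 39714 gene IDs in the table, under 84 distinct symbols. The symbols are those of the gene name reference, which gives many zebrafish genes in the mammalian form (HTR1A, SSTR2), so some pairs of IDs share a symbol and are told apart here by their ID.

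All libraries came from Tg(tph2:GFP) fish, in which the promoter of tph2, the gene of the enzyme that makes serotonin in neurons, drives a green fluorescent protein. The spinal cord of every fish had been completely transected, and GFP+ cells were sorted 6 to 8 weeks post injury. They came from the segment at the lesion (injury segment, 6 libraries) or from segments distal to it in the same preparations (distal segments, 5 libraries). The fish used in the study were juveniles and adults aged 6 to 8 weeks and of both sexes, and no uninjured fish enter this comparison. Whether that age is the age at injury or at sorting is not stated. The number of fish and of cells behind each library is not given in the sources used here, and nothing in the labels says that 2 libraries of a group came from different fish, so p-values measure the spread between these libraries only.

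Nearly all of these receptors are G protein-coupled. Receptors coupled to Gi/o lower cyclic AMP, open GIRK potassium channels and close calcium channels, and they generally quiet a neuron or its terminals, whereas Gq/11 receptors act through phospholipase C and Gs receptors through adenylyl cyclase. An autoreceptor responds to the transmitter that its own cell releases, as 5-HT1A does on the soma and 5-HT1B and 5-HT1D do on the terminals of mammalian serotonergic neurons. Heteroreceptors on the same cells, such as alpha2-adrenergic, histamine H3, somatostatin and nociceptin receptors, report the release of other neurons.

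The values were FPKM, the fragments assigned to a gene per kilobase of its length, scaled to the depth of the library, so that levels can be compared between genes. The libraries held 14215980 to 19709661 assigned fragments, a total recovered from the steps between the FPKM values, yet they differed widely in the number of genes detected. Genes with at least 1 FPKM numbered 4530 to 16019 in the injury libraries and 8448 to 14208 in the distal libraries. Of 137 IDs for proteasome, NADH dehydrogenase, RNA polymerase II, translation initiation factor 3 and splicing factor 3 subunits, which nearly every cell uses, 50.4% were listed at 0 in injury library 3, 28.5% in injury library 2 and 20.4% in distal library 2, against 5.11% to 14.6% in the other 8. A gene at 0 in one of these libraries is therefore reported as listed at 0. Several receptor results that lean on such zeros are also given without these 3 libraries. One fragment of a gene of 1500 bases was worth 0.0338 to 0.0469 FPKM, and a count of 0 allows up to 3 fragments, or 0.101 to 0.141 FPKM for such a gene, as far as counting error alone goes.

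The sorted cells held the markers of serotonergic neurons. Of 12 serotonergic IDs, 9 were above 0 in every library, with a summed level of 6810 to 10800 FPKM in the injury libraries and 4620 to 12300 FPKM in the distal libraries. TPH2 itself ranged from 1590 to 5396 FPKM in the injury libraries and from 1462 to 6042 FPKM in the distal libraries. All 7 pan-neuronal IDs were above 0 in every library too.

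Of the 97 receptor IDs, 67 were above 0 in at least 1 library (69.1%, against 74.9% of the 29201 IDs with a symbol) and 30 were listed at 0 in all 11. Only 7 were above 0 in every library: SSTR1, ADRA2A, hrh3, HTR1D, OPRL1, MC5R and CRHR1 (7.22%, against 7.07% of all IDs with a symbol). Another 12 were above 0 in 6 to 10 libraries and 48 in 1 to 5, of which 18 appeared in a single library. Leaving out injury libraries 2 and 3 and distal library 2 raised the number above 0 in every remaining library from 7 to 11 (11.3%, against 19.9% of all IDs with a symbol). At the injury 33, 14, 11, 19, 40 and 40 receptor IDs were above 0 in libraries 1 to 6. In distal libraries 1 to 5 they numbered 20, 16, 32, 21 and 36. The groups overlapped throughout, with means of 26.2 ± 13.1 (SD, n = 6) and 25.0 ± 8.54 (SD, n = 5), and the libraries with few receptor IDs were those with few genes of any kind.

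**Figure D1:**
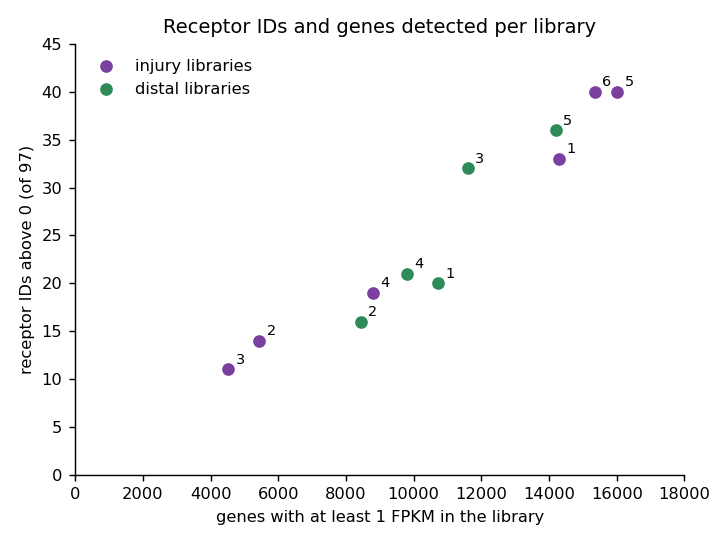
Receptor IDs above 0 in each library (y axis, of 97) against the number of genes with at least 1 FPKM in the same library (x axis); each point is 1 library, labelled with its replicate number. Injury library 3 holds 11 receptor IDs among 4530 genes and injury library 5 holds 40 among 16019, and the distal libraries lie between them.

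Most of the summed receptor FPKM lay on few genes and on one signalling class. The same shares were not taken for other gene lists, so no trait particular to the receptors is read from them. The 12 receptor IDs with a mean of at least 10 FPKM carried 91.3% of the summed receptor FPKM, and they lay between the 83.2 and the 96.3 percentile of all genes tested by mean level. In descending order these were SSTR1, ADRA2A, SSTR2, hrh3, HTR1D, OPRL1, htr1aa, HTR1A, htr1b, MC5R, DRD2 and ADRA2B, and 11 of the 12 belong to families that couple to Gi/o, with the melanocortin receptor MC5R as the exception. The 43 IDs of Gi/o families made up 89.7% of the summed receptor FPKM over the libraries, the 30 IDs of Gs families 5.76%, the 22 IDs of Gq/11 families 4.56% and the 2 IDs of the 5-HT3 receptor, which is an ion channel and not G protein-coupled, 0.00811%. Within single libraries the Gi/o share ran from 83.2% to 95.2% at the injury and from 83.8% to 95.8% in the distal segments. By family, somatostatin receptors held 27.7%, 5-HT1 receptors 21.8%, alpha2-adrenergic receptors 15.9%, the H3 receptor 13.2% and the opioid and nociceptin receptors 6.80%. The summed receptor level was 575 ± 134.5 FPKM at the injury (SD, n = 6) and 716 ± 215 FPKM in the distal segments (SD, n = 5), and the groups overlapped, with ranges of 388 to 746 and 416 to 951 FPKM.

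**Figure D2:**
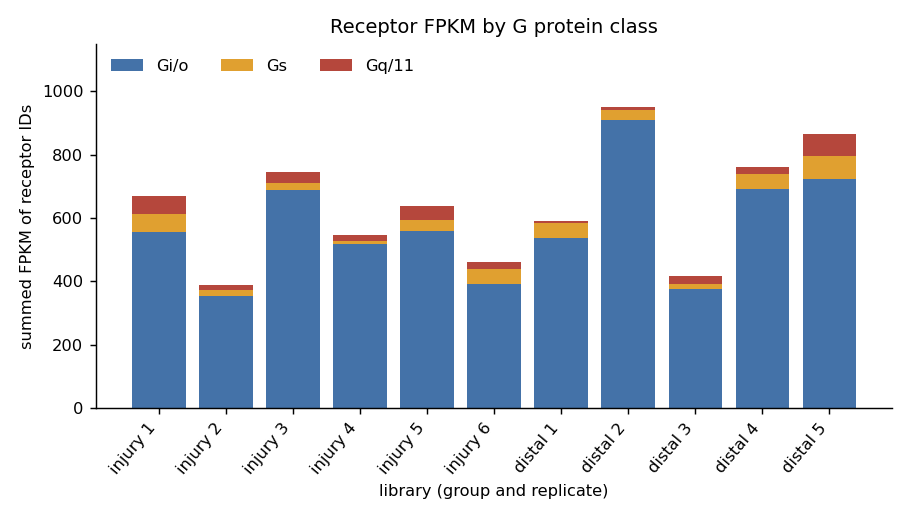
Summed FPKM of the receptor IDs in each library, stacked by the G protein class of the receptor family (the 5-HT3 channel, at most 0.495 FPKM, is left out). The Gi/o part is the largest in all 11 libraries, from 354 to 687 FPKM in the injury libraries and from 374 to 911 FPKM in the distal libraries.

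Among receptors for serotonin, those of the 5-HT1 family dominated, and 4 of its 6 IDs were found. HTR1D (ENSDARG00000054124), a terminal autoreceptor in mammals, was the only one of them found in every library. Its levels in injury libraries 1 to 6 were 55.8, 13.4, 83.9, 32.5, 40.9 and 40.7 FPKM. In distal libraries 1 to 5 they were 41.7, 88.05, 31.2, 113 and 75.0 FPKM. The level was lowest in injury library 2 and highest in distal library 4, and the groups overlapped (44.5 ± 23.7 against 69.8 ± 33.6 FPKM, SD, n = 6 and n = 5). The difference, injury minus distal, on the log2(FPKM + 1) scale was -0.68 ± 0.73 (SE), with a 95% interval from -2.17 to 0.81.

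The somatic autoreceptor 5-HT1A was represented by 2 IDs. The ID named htr1aa (ENSDARG00000093745) was at 17.8, 34.3, 90.3, 0, 32.8 and 15.3 FPKM at the injury and at 24.5, 29.96, 19.7, 41.0 and 22.0 FPKM in the distal segments. It was thus present in every library but injury library 4, and the distal levels lay within the range of those at the injury. HTR1A (ENSDARG00000057098) was at 65.6, 0, 0, 98.0, 51.5 and 15.6 FPKM at the injury and at 19.4, 0, 10.8, 40.1 and 0 FPKM in the distal segments. Injury library 4, with htr1aa listed at 0, had the highest HTR1A level, and injury library 3, with HTR1A listed at 0, had the highest htr1aa level. Neither difference passed the test, at -0.62 ± 0.96 for htr1aa and 1.09 ± 1.28 for HTR1A (log2 scale, SE; adjusted p = 0.871 and 0.840, limma with Benjamini-Hochberg adjustment over all genes). Without the 3 libraries poor in genes of every cell, the HTR1A difference was 2.30 ± 0.91 with an unadjusted p of 0.0209 and that of htr1aa was -1.40 with an unadjusted p of 0.127, and both adjusted p-values were 0.797 (limma). Leaving out 1 library moved HTR1A to 1.84 (without injury library 2 or 3), 1.77 (without distal library 4), 0.51 (without injury library 4) or 0.43 (without distal library 2 or 5), and moved htr1aa to -1.09 without injury library 3 and to 0.22 without injury library 4.

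The study knocked out htr1b, htr2b and htr7c in separate lines of whole animals. It reported impaired axon regrowth and locomotion without htr1b, and described the other lines as similar to wild type. Its statistics nevertheless list slower free swimming without htr2b and fewer interneurons with regrown axons without htr7c. The number of ISNs did not differ significantly without htr1b. In sorted excitatory interneurons the study found more htr1b where axons had regrown, and it reported thinner axons of such cells without htr1b. A 5-HT1B agonist in the water hastened recovery, and the number of ISNs did not differ significantly. The study placed the role of this receptor in the interneurons, while the knockout and the agonist acted on the whole animal. In the sorted ISNs htr1b (ENSDARG00000053987) was at 8.01, 87.8, 53.4, 30.1, 11.9 and 7.48 FPKM at the injury. In the distal segments it was at 47.4, 0, 15.2, 25.0 and 4.78 FPKM. The high libraries were of both groups, and the difference was 1.15 ± 1.01 (log2 scale, SE), with an interval from -0.91 to 3.22 and an adjusted p of 0.838 (limma). Without the 3 libraries named above it was -0.49, so that the sign turned with the choice of libraries. The summed level of the 5-HT1 IDs was 79.0 to 228 FPKM in the injury libraries and 76.9 to 219 FPKM in the distal libraries, 2.96-fold between the extremes, and each library held at least 2 of the 4 IDs. The 2 other IDs, htr1fa and htr1fb, were listed at 0 in all libraries.

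**Figure D3:**
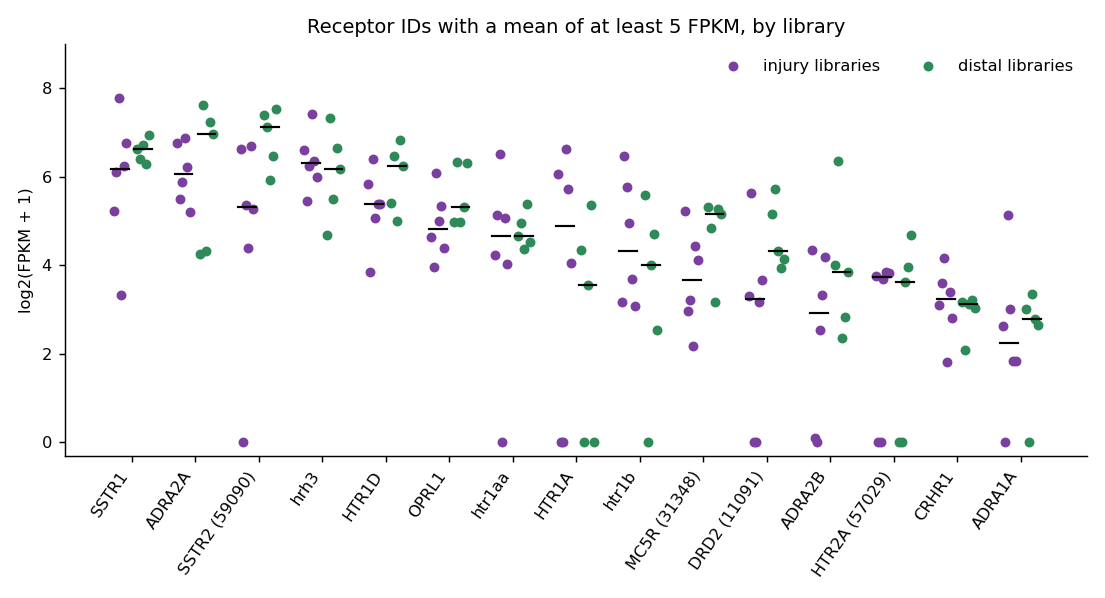
Levels of the 15 receptor IDs with a mean of at least 5 FPKM, as log2(FPKM + 1), in each of the 6 injury and 5 distal libraries (points); black lines mark group medians. Points at 0 are libraries in which the ID is listed at 0, as for HTR1A in injury libraries 2 and 3 and distal libraries 2 and 5. Digits after a symbol are the end of the gene ID where a symbol belongs to more than 1 receptor ID.

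The remaining serotonin receptors had lower levels. HTR2A (ENSDARG00000057029), a Gq/11-coupled and generally excitatory receptor, was at 12.6, 0, 0, 11.9, 13.5 and 13.3 FPKM at the injury and at 0, 0, 11.3, 14.6 and 24.8 FPKM in the distal segments. Where it was found its level therefore stayed between 11.3 and 24.8 FPKM, and it was listed at 0 in 2 libraries of each group. The difference was 0.07 ± 1.11 (log2 scale, SE), and 0.72 ± 0.88 without the 3 libraries poor in genes of every cell. The 5-HT2C-like gene htr2cl1 (ENSDARG00000018228) was at 4.75, 16.0, 0, 0, 1.57 and 0.0668 FPKM at the injury. Of the distal segments it was found in library 3 alone, at 1.77 FPKM. Its difference was 1.05 ± 0.79, and 0.63 ± 0.69 without the 3 libraries. HTR2B (ENSDARG00000115925) had at most 27 fragments in any library. It reached 0.144 and 0.161 FPKM in injury libraries 5 and 6 and 0.416 and 1.03 FPKM in distal libraries 4 and 5, and it was listed at 0 in the other 7.

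The Gs-coupled 5-HT7 receptors were seen in a few libraries each. The gene htr7a (ENSDARG00000056949) was at 3.34 and 2.13 FPKM in injury libraries 1 and 6 and at 8.96 FPKM in distal library 5. The gene htr7c (ENSDARG00000095272) was at 2.13 and 0.0776 FPKM in injury libraries 5 and 6 and at 4.64 FPKM in distal library 5. These 3 libraries of htr7c are among the 4 with the most genes detected. The differences of htr7a and htr7c were -0.04 ± 0.67 and -0.21 ± 0.48 (log2 scale, SE), and in both the sign turned when distal library 5 was left out. The other 2 IDs of the 5-HT7 family and the single 5-HT6 ID were listed at 0 throughout, HTR4 reached 1.204 FPKM in injury library 4 and HTR5A (ENSDARG00000068557) 3.38 FPKM in distal library 3, and the 5-HT3 channel gene HTR3A did not exceed 0.495 FPKM.

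Receptors for noradrenaline, histamine and dopamine were represented by 1 or 2 strongly expressed receptors each. ADRA2A (ENSDARG00000040841), the alpha2A-adrenergic receptor and an inhibitory heteroreceptor on mammalian serotonergic neurons, was at 107, 44.1, 58.4, 116, 73.7 and 35.8 FPKM at the injury. In the distal segments it was at 18.01, 195, 19.0, 149.7 and 124.9 FPKM. The injury libraries lay inside the range of the distal libraries, which fell into 2 low and 3 high values (72.5 ± 33.0 against 101 ± 79.8 FPKM, SD, n = 6 and n = 5), and the difference was -0.01 ± 0.76 on the log2 scale, with a sign that turned under several alternatives. ADRA2B (ENSDARG00000102096) was at 19.5, 0.0642, 0, 4.81, 8.99 and 17.2 FPKM at the injury and at 15.0, 81.3, 4.16, 6.18 and 13.4 FPKM in the distal segments. Its difference of -1.47 ± 1.03 became 0.34 without the 3 libraries poor in genes of every cell. The Gq/11-coupled alpha1 receptors followed at lower levels. ADRA1A (ENSDARG00000028725) was at 2.57 to 34.3 FPKM in 5 injury libraries and at 5.30 to 9.28 FPKM in 4 distal libraries, and it was listed at 0 in injury library 2 and distal library 2. ADRA1B (ENSDARG00000011317) was above 0 in 3 libraries, at 8.18 and 11.2 FPKM in injury libraries 1 and 5 and at 9.97 FPKM in distal library 5. Of the 5 beta-adrenergic IDs, ADRB1 (ENSDARG00000007490) had the highest level, 8.87 FPKM in distal library 5 beside 2.79 FPKM in injury library 6, and it was listed at 0 elsewhere.

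The histamine H3 receptor gene hrh3 (ENSDARG00000035942), an inhibitory presynaptic receptor on many aminergic neurons, was found in every library. It was at 96.98, 42.5, 74.6, 169.9, 81.6 and 63.2 FPKM at the injury and at 24.9, 160.1, 44.1, 99.4 and 71.1 FPKM in the distal segments. The groups overlapped almost fully (88.1 ± 44.05 against 79.9 ± 52.9 FPKM, SD, n = 6 and n = 5), and the difference was 0.28 ± 0.68 (log2 scale, SE). The H2 receptor IDs, 2 in number, were listed at 0 in all libraries.

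The D2-like dopamine receptors gave the second largest negative difference among the strongly expressed members. DRD2 (ENSDARG00000011091), the Gi/o-coupled D2 receptor, was at 8.86, 49.0, 0, 0, 8.09 and 11.6 FPKM at the injury. In the distal segments it was at 34.9, 51.5, 19.1, 14.4 and 16.8 FPKM. All distal libraries were at or above 14.4 FPKM and 5 of the 6 injury libraries were at or below 11.6 FPKM. Injury library 2 was the exception, with nearly the level of the highest distal library. The difference was -2.03 ± 1.01 (log2 scale, SE), with an interval from -4.10 to 0.04, an unadjusted p of 0.054 and an adjusted p of 0.838 (limma). The unadjusted p was under 0.05 in 6 of the alternatives, among them 0.0352 without the 3 libraries (difference -1.86), 0.0381 with quantile normalisation, 0.0433 with voom, 0.0101 without injury library 2 and 0.0487 without injury library 6, and the adjusted p was 0.729 or higher in each. It was higher than in the full set in others, at 0.107 and 0.146 without injury library 3 or 4, where the difference was -1.50, and at 0.0973 and 0.113 without distal library 1 or 2.

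A second D2-like gene, drd4-rs (ENSDARG00000001912), a D4 receptor related sequence, was the only receptor ID tested whose groups did not overlap. It was listed at 0 in injury libraries 1 to 5 and was at 0.0147 FPKM, or 1 fragment, in injury library 6. In distal libraries 1 to 5 it was at 2.1, 2.97, 0.0407, 0.220 and 0.868 FPKM, which are 164, 200, 3, 13 and 62 fragments. The difference of -0.97 ± 0.44 (log2 scale, SE) had an interval from -1.87 to -0.07, an unadjusted p of 0.0362 and an adjusted p of 0.838 (limma). One of the 54 receptor IDs tested (1.85%) had groups that did not overlap, against 0.252% of all genes tested. The mean of drd4-rs was 0.00246 FPKM at the injury and 1.24 FPKM in the distal segments, so it reached the filter through the distal libraries. The sign of its difference was thereby fixed, and no support is drawn from its p-values or from the separation. The lowest distal level, at 3 fragments, stood only 2 fragments above the highest injury level, so the separation of the groups rests on very few fragments. Without the 3 libraries the difference was -0.71 (unadjusted p = 0.110, limma). It was -2.94 (unadjusted p = 0.0204) with a pseudocount of 0.1 and -5.99 (unadjusted p = 0.000906, adjusted p = 0.874) with voom on the fragments. Another D2-like gene, DRD3 (ENSDARG00000032131), was named after its values were seen. It was at 2.33, 0, 0, 0.224, 0.916 and 1.70 FPKM at the injury. Of the distal libraries it had 2 fragments in library 1 and was listed at 0 in the others. Its difference was 0.72 ± 0.42 with an unadjusted p of 0.0998 (limma), and 0.0294 with voom (adjusted p = 0.874). The mean of DRD3 was 0.860 FPKM at the injury and 0.0111 FPKM in the distal segments. It thus reached the filter through the injury libraries, which fixed its sign, and no support is drawn from these p-values. Of the 5 D1-like IDs, DRD1 reached 3.46 FPKM in injury library 1 and DRD5 0.0442 FPKM in the same library, and the other 3 were listed at 0.

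Peptide inputs were led by the somatostatin receptors, which are Gi/o-coupled and inhibit the cells that carry them. SSTR1 (ENSDARG00000104922) had the highest mean of all receptor IDs. It was at 36.2, 68.2, 219, 9.07, 74.7 and 107 FPKM at the injury and at 97.9, 83.3, 104.5, 76.8 and 122.5 FPKM in the distal segments. The distal libraries lay close together and the injury libraries spread 24.1-fold, on both sides of the distal ones (85.8 ± 73.5 against 97.01 ± 18.1 FPKM, SD, n = 6 and n = 5). The difference was -0.69 ± 0.74 (log2 scale, SE). It was -0.17 without injury library 4, the lowest, -1.06 without injury library 3, the highest, and -1.26 without the 3 libraries poor in genes of every cell (unadjusted p = 0.0611, adjusted p = 0.797, limma).

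SSTR2 (ENSDARG00000059090) showed the largest negative difference of the strongly expressed receptors. It was at 98.2, 0, 40.1, 19.9, 102.8 and 37.9 FPKM at the injury. In the distal segments it was at 166, 139, 59.5, 87.3 and 183 FPKM. Injury libraries 2, 3, 4 and 6 lay below every distal library, and injury libraries 1 and 5 lay within the distal range. The difference was -2.16 ± 0.94 (log2 scale, SE), with an interval from -4.09 to -0.23, an unadjusted p of 0.0295 and an adjusted p of 0.838 (limma), so that it did not pass the test over all genes. The value leaned on injury library 2, in which the gene was listed at 0. Without that library the difference was -1.21 (unadjusted p = 0.0767, limma), and without the 3 libraries poor in genes of every cell it was -1.07 (unadjusted p = 0.0828, limma). Leaving out distal library 1 or 5 gave unadjusted p-values of 0.0564 and 0.0614. The somatostatin receptor sstr1b (ENSDARG00000067925), reached 9.04 FPKM in distal library 1 and at most 2.65 FPKM elsewhere. The other 3 IDs of the family, the second SSTR2 among them, were listed at 0. No fewer than 1 and no more than 3 somatostatin receptor IDs were found in any library.

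OPRL1 (ENSDARG00000071209), the receptor of nociceptin, was by far the most abundant of its family and was found in all 11 libraries. It was at 23.8, 14.5, 66.9, 30.9, 39.6 and 19.95 FPKM at the injury and at 30.4, 79.6, 30.6, 39.0 and 78.6 FPKM in the distal segments. The groups overlapped (32.6 ± 18.9 against 51.6 ± 25.3 FPKM, SD, n = 6 and n = 5), and the difference was -0.69 ± 0.75 (log2 scale, SE). The mu opioid receptor OPRM1 (ENSDARG00000039434) was at 3.68 and 4.71 FPKM in injury libraries 5 and 6 and at 6.31 FPKM in distal library 3. Each of the 2 delta opioid receptor IDs (OPRD1) appeared in 1 injury library. The levels were 5.57 FPKM in library 6 (at least 27 fragments) and 3.84 FPKM in library 5 (at least 13 fragments). The kappa receptor OPRK1 was listed at 0.

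The melanocortin receptor MC5R (ENSDARG00000031348) was the only Gs-coupled member with a mean above 10 FPKM. It was at 36.2, 6.83, 8.29, 3.54, 20.6 and 16.3 FPKM at the injury and at 38.8, 27.9, 7.99, 37.6 and 35.0 FPKM in the distal segments. Distal libraries other than library 3 were at or above 27.9 FPKM, as was injury library 1, and the groups overlapped (15.3 ± 12.05 against 29.5 ± 12.7 FPKM, SD, n = 6 and n = 5). The difference was -1.07 ± 0.85 (log2 scale, SE), with an adjusted p of 0.838 (limma). The melanocortin precursor genes in the ligand list, POMC and pomcb, were at most at 0.995 FPKM.

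The receptor of corticotropin-releasing hormone CRHR1 (ENSDARG00000003989), which is Gs-coupled, was low but found in all libraries. It was at 7.63, 11.1, 16.8, 2.50, 9.49 and 5.97 FPKM at the injury and at 8.08, 3.27, 7.81, 8.35 and 7.19 FPKM in the distal segments. The distal libraries other than library 2 spanned 7.19 to 8.35 FPKM and the injury libraries lay on both sides of them (8.92 ± 4.88 against 6.94 ± 2.09 FPKM, SD, n = 6 and n = 5), with a difference of 0.21 ± 0.86 (log2 scale, SE). The gene crhr2 (ENSDARG00000103704) was found only in injury library 6, at 15.2 FPKM or at least 38 fragments. A further CRHR2 ID was found only in distal library 3, at 0.0541 FPKM. UCN3, a gene named for urocortin 3, the peptide that prefers the CRHR2 receptor in mammals, was at 19600 to 23760 FPKM in the injury libraries and at 9470 to 25830 FPKM in the distal libraries, and it was picked out after its values were seen.

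The tachykinin, galanin, neuropeptide Y and urotensin 2 receptors were mostly sparse. TACR1 (ENSDARG00000035533), the Gq/11-coupled receptor of substance P, was at 5.303, 5.496 and 1.997 FPKM in injury libraries 1, 5 and 6 and was listed at 0 in the other 3. In the distal segments it was at 8.68 and 18.3 FPKM in libraries 2 and 5 and at no more than 0.106 FPKM, or 3 fragments, in the rest. GALR1 (ENSDARG00000005522), the Gi/o-coupled galanin receptor, was at 5.47, 0, 0, 4.22, 1.55 and 2.04 FPKM at the injury and at 0, 0.0836, 1.04, 0 and 0 FPKM in the distal segments. It was thus at or above 1.55 FPKM in 4 injury libraries and in no distal library, the 2 injury libraries listed at 0 being those poorest in genes of every cell. The difference was 1.11 ± 0.70 (log2 scale, SE; unadjusted p = 0.122, limma), and 1.75 ± 0.82 without the 3 libraries (unadjusted p = 0.0445, adjusted p = 0.797, limma). Of the 5 neuropeptide Y receptor IDs npy7r (ENSDARG00000103623) alone was found, in injury libraries 5 and 6 at 7.27 and 0.599 FPKM and in distal libraries 3 and 5 at 2.58 and 0.901 FPKM. The 5 urotensin 2 receptor IDs did not exceed 2.98 FPKM, although the urotensin-related peptide gene urp1 was at 213 and 537 FPKM in injury libraries 5 and 6.

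Adenosine and cannabinoid receptors completed the set. The adenosine A3 receptor gene adora3a.1 (ENSDARG00000044061) was at 6.29 and 2.55 FPKM in injury libraries 5 and 6 and at 5.75 and 4.68 FPKM in distal libraries 1 and 5. ADORA2B (ENSDARG00000002533) was at 5.61 and 2.54 FPKM in injury libraries 1 and 5 and at 4.93 FPKM in distal library 5. The cannabinoid receptor CNR1 (ENSDARG00000009020), presynaptic in many neurons, had its highest levels in injury library 1 at 3.27 FPKM and in distal library 3 at 1.81 FPKM. Across the whole set, 16 IDs were above 0 at the injury alone and 11 in the distal segments alone. The same counts over all IDs were not taken, so no difference between the groups is read from them. All-or-none patterns were mostly those of single libraries, as 18 IDs were found in only 1 library. Of the 27 IDs with a mean of at least 1 FPKM, 20 were listed at 0 in at least 1 library.

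**Figure D4:**
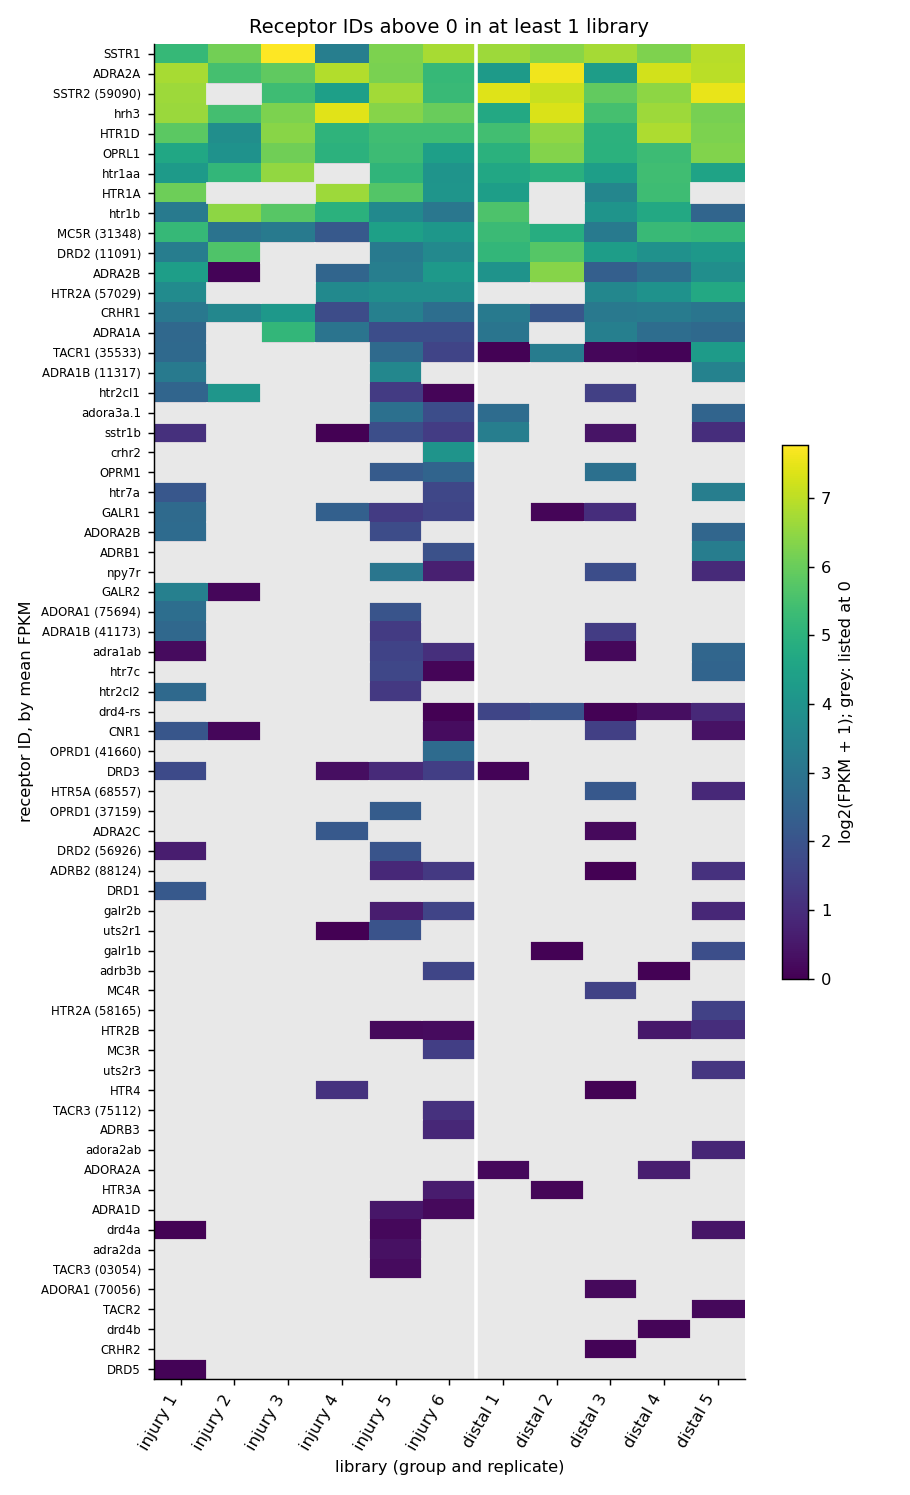
Levels of the 67 receptor IDs found in at least 1 library, as log2(FPKM + 1), ordered from top to bottom by mean FPKM over the 11 libraries, with the 6 injury libraries left and the 5 distal libraries right of the white line; grey cells are listed at 0. Below the top 15 rows most cells are grey, and injury libraries 1, 5 and 6 and distal libraries 3 and 5 hold most of the rest.

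The comparison of the injury segment with the distal segments was fitted with limma over the 24178 genes whose mean reached 0.1 FPKM, of which 54 were receptor IDs. The remaining receptor IDs were too low to test. No receptor ID passed an adjusted p of 0.05, the lowest adjusted p being 0.838, and neither did any other gene (0 of 24178, or 0.0%). With voom on the recovered fragments 3 genes passed, none of them a receptor. At an unadjusted p under 0.05, 2 of the 54 receptor IDs (3.70%) stood out, against 649 of all genes (2.68%). Both, SSTR2 and drd4-rs, had lower values at the injury, in which direction 2.03% of all genes (490) lay. The share among receptors is near that background. Of the pair, drd4-rs reached the filter through the distal libraries, which fixed its sign. Of the 649 genes, 159 (24.5%) had higher and 490 lower values at the injury, and after quantile normalisation the counts were 315 and 464. Over the tested receptors 31 differences were positive and 23 negative, with a median of 0.11 (log2 scale), beside -0.04 over all genes tested. Some of these IDs, such as crhr2 and HTR5A (ENSDARG00000068557), were found in a single group and reached the filter through it. Their sign was thereby fixed. The signs over all genes were not counted, so no lean of the receptors is read from this split.

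The precision was low. The 95% interval of a receptor's difference had a median width of 2.23 log2 units, and differences that are small beside that width were not detectable in these libraries. All 12 receptor IDs with a mean of at least 10 FPKM had wider intervals, such as -1.125 to 1.684 for hrh3 and -1.531 to 3.708 for HTR1A. Among the 13 tested IDs of the serotonin receptors 6 differences were positive and 7 negative, and none had an unadjusted p under 0.05. Here too some IDs were found in a single group, which fixed their sign. Among the 26 tested IDs of Gi/o families 13 were positive and 13 negative, and all 3 tested somatostatin receptors were negative. These libraries are pools of sorted cells, so fewer cells with a receptor and less RNA of it per cell cannot be told apart.

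**Figure D5:**
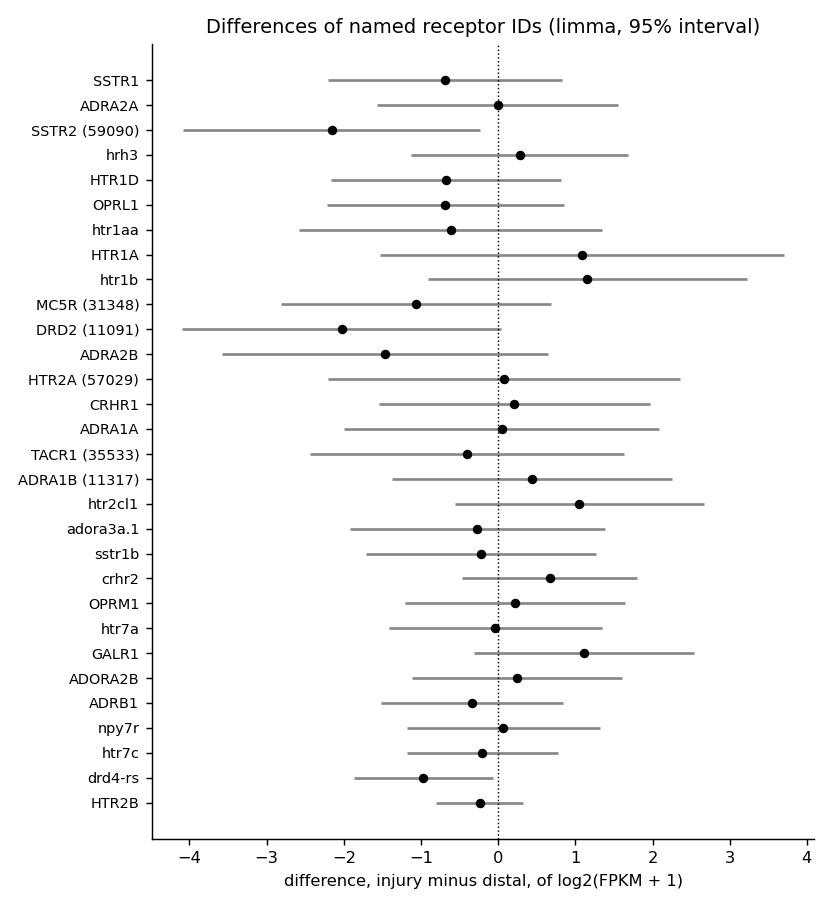
Differences, injury minus distal, of log2(FPKM + 1) for the 30 named receptor IDs, ordered by mean FPKM; points are limma estimates and lines their 95% intervals. The interval excludes 0 for SSTR2 (ENSDARG00000059090) and drd4-rs alone, and neither passes after adjustment over all genes.

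Genes that act downstream of these receptors were examined in the same fit. Of 14 G protein alpha subunit IDs, 11 were tested and none had an unadjusted p under 0.05. GNAO1, the Go subunit abundant in neurons, was found in all libraries, at 56.0 to 111 FPKM in the injury libraries and 46.7 to 157 FPKM in the distal libraries, and gnai1 in all but injury library 3. The Gs subunit GNAS was lower, at no more than 25.1 FPKM in any library. Another subunit of the Gs class, gnal, was higher than GNAS. It was at 0 to 55.5 FPKM in the injury libraries and 15.95 to 59.8 FPKM in the distal libraries. Among 5 GIRK channel IDs, which open upon Gi/o activation, all were tested and none stood out, and KCNJ9 was the highest, at 0 to 40.6 FPKM in the injury libraries and 0 to 17.7 FPKM in the distal libraries. Of 12 adenylyl cyclase IDs 10 were tested and 1 had an unadjusted p under 0.05, beside 2.68% of all genes tested, and no excess is read from it. This was an ADCY6 ID with a difference of -1.79 ± 0.84 (log2 scale, SE; unadjusted p = 0.0417, adjusted p = 0.838, limma). The 3 tested phospholipase C beta IDs and the 8 receptor kinase and arrestin IDs held none. The regulators of G protein signalling, which end Gi/o and Gq/11 signals, included the most abundant genes of the list, rgs3a at 102.7 to 1023 FPKM and rgs5b at 387 to 1602 FPKM over all libraries, and none of the 10 tested had an unadjusted p under 0.05.

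Several of the peptides that bind these receptors were made by the sorted cells or by cells sorted with them. Of 31 ligand IDs 23 were tested, of which 1 had higher and 1 lower values at the injury at an unadjusted p under 0.05, and none passed after adjustment. Over all genes tested, 649 of 24178 (2.68%) were under that threshold in the same fit (limma). No excess of ligands is read from these small counts. The proenkephalin gene penka was at 24.5, 132 and 192 FPKM in injury libraries 2, 5 and 6 and at 0.0373 FPKM in injury library 1. It was listed at 0 in all other libraries (difference 3.23 ± 1.26, unadjusted p = 0.0165, limma). Having been found at the injury alone, it reached the filter through that group, which fixed its sign. The tachykinin gene tac3a was at 35.4, 0, 0, 58.9, 2.58 and 78.5 FPKM at the injury and at 363, 19.2, 157, 40.3 and 47.5 FPKM in the distal segments (difference -3.02 ± 1.14, unadjusted p = 0.0134, limma). The somatostatin-family gene sst6 was found in every library, at 109 to 309 FPKM in the injury libraries and 93.5 to 163 FPKM in the distal libraries. The nociceptin precursor pnocb was at 20.7 and 40.6 FPKM in injury libraries 5 and 6 and listed at 0 elsewhere, whereas its receptor OPRL1 was found in all 11. By in situ hybridisation at an earlier time after injury, the study reported pnocb in GFP+ ISNs at the injury and not in distal ones.

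Markers of other cells varied between libraries and were set beside these results. The 5 matched IDs of cerebrospinal fluid-contacting neurons summed to 0 to 748 FPKM in the injury libraries and 0 to 5.76 FPKM in the distal libraries. Of these, urp1 and urp2 were high in injury libraries 5 and 6, which also held pnocb and the most receptor IDs. The other IDs did not all follow. PKD2L1 was at 32.7 FPKM in injury library 6 but at 0.595 FPKM in injury library 5, below injury library 1 (3.39 FPKM) and distal library 1 (5.72 FPKM). The gene pkd1l2a was at 36.6 FPKM in injury library 6, and at 4.0 FPKM in injury library 5 and 4.04 FPKM in distal library 4. NPY was listed at 0 throughout. The 7 oligodendrocyte IDs summed to 0 to 752 FPKM in the injury libraries and 160 to 708 FPKM in the distal libraries, and among them the myelin gene mbpa was at 0 to 234 FPKM in the injury libraries and 129 to 531 FPKM in the distal libraries, a difference of -4.54 (unadjusted p = 0.000171, limma) in the direction of those of SSTR2, DRD2 and drd4-rs. Microglial IDs summed to 0 to 340 and 0.0469 to 263 FPKM, ependymo-radial glial IDs to 112 to 549 and 53.9 to 765 FPKM, and fibroblast and pericyte IDs to 0 to 44.5 and 0 to 47.3 FPKM, in the injury and distal libraries, respectively. Of the ependymo-radial glial IDs only those of GLUL were above 0 in every library. GFAP was listed at 0 in some libraries of each group and reached at most 33.1 FPKM. Motor neuron IDs summed to 0 to 12.1 and 0 to 0.074 FPKM, glutamatergic IDs to 0 to 4.14 and 0 to 3.59 FPKM, GABA and glycine IDs to 22.1 to 81.6 and 10.2 to 54.5 FPKM, and erythrocyte IDs to 0 to 21.3 and 0 FPKM. Most of the GABA and glycine sum was GAD2, at 10.2 to 78.7 FPKM over all libraries. No other ID of that list exceeded 8.81 FPKM. Endothelial IDs were at or near 0 in all libraries, with sums of at most 0.740 FPKM. The part of these cells in the receptor values was not tested.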

How the data were processed

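GFP+ ISNs had been sorted from dissociated spinal cord, and cDNA was amplified with the SMART-Seq v4 Ultra Low Input kit before NEBNext Ultra library preparation and paired-end sequencing. Per the submitters' processing notes, HISAT2 2.0.5, HTSeq 0.9.1 and the build danRer11 were used, and the strand setting of the counting is not given in the sources used here. The authors deposited FPKM per gene ID, 1 column per library. Amplified reads carry no molecular identifiers, so counting limits cover counting error only, and reads of near-identical paralogs, overlapping or antisense genes may be split or shared. Receptor levels of paralogs under 1 symbol are uncertain to that extent.

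Symbols were taken from a gene name table, which named 29201 of 39714 IDs. Fragments and library totals were recovered from the steps of the FPKM values (a share of 0.9890 of the step lengths came out whole within 0.02). The shortest gene length that gave whole fragments was used. For an ID found in 1 or few libraries the recovered fragments are therefore a lower bound. The main test was limma 3.58.1 under R 4.3.3 (linear fit, then eBayes moderation with an intensity trend, two-sided) on log2(FPKM + 1) for genes whose mean reached 0.1 FPKM, with Benjamini-Hochberg adjustment over all genes tested and a threshold of 0.05. A fold change on this scale understates that of low genes. The fit and the recovery were tested on simulated data. Alternatives were a pseudocount of 0.1, no filter, a filter at a mean of 1 FPKM, rescaling to an equal sum, quantile normalisation, no trend, a covariate for genes detected, voom on the fragments, the replicate number as a block, leaving out the 3 libraries poor in genes of every cell, and leaving out each library in turn. Receptors were named if their mean was at least 1 FPKM, if they were serotonin receptors above 0 in at least 3 libraries, or if they had an unadjusted p under 0.05 or groups without overlap. The members and the gene lists were chosen with earlier results of these data known. No sequences or coordinates were used here.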

Additional observations from a re-analysis of the deposited data

Results flagged for a closer look

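In each group with 4 or more libraries, the gap between the most extreme library and its neighbour was compared with the range of the group by Dixon's criterion. Over the named receptor IDs 59 groups were examined and 17 were marked, where chance marks about 1 in 20. Several marks go with a gene listed at 0 in all other libraries of its group, since any single value then stands apart. At the low end these were SSTR2, at 0 in injury library 2, MC5R at 7.99 FPKM in distal library 3, CRHR1 at 3.27 FPKM in distal library 2 and ADRA1A at 0 in distal library 2.

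At the high end, distal library 5 stood apart for ADRA1B (9.97 FPKM), htr7a (8.96 FPKM), ADRB1 (8.87 FPKM), ADORA2B (4.93 FPKM) and htr7c (4.64 FPKM). Distal library 3 stood apart for OPRM1 (6.31 FPKM), htr2cl1 (1.77 FPKM) and GALR1 (1.04 FPKM). Injury library 6 did so for crhr2 (15.2 FPKM), ADRB1 (2.79 FPKM) and drd4-rs (0.0147 FPKM), and injury library 5 for npy7r (7.27 FPKM) and htr7c (2.13 FPKM). These 4 libraries had 11600 to 16019 genes at or above 1 FPKM, and the lower marks of ADRA1A, CRHR1 and SSTR2 were in libraries with 8448 and 5443 such genes. The low mark of MC5R was in distal library 3, with 11600.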

How the results depend on the processing

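No receptor ID passed an adjusted p of 0.05 in any of the alternatives run. Genes of any kind numbered 0 in the main test, with 649 at an unadjusted p under 0.05, 2 without a trend (USH1C and an ID without a symbol) and 3 with voom (chgb, USH1C and UCN3). At an unadjusted p under 0.05, all genes numbered 1130 with genes detected in the model as a covariate, 1184 with voom and 541 to 739 when 1 library was left out. Receptor IDs at that threshold numbered 1 without a filter (drd4-rs), 1 with a mean of at least 1 FPKM (SSTR2), 1 without a trend (drd4-rs), 4 with voom (SSTR2, DRD2, DRD3 and drd4-rs) and 0 to 2 when 1 library was left out. The p of drd4-rs was then 0.0536 to 0.0691 without any one of the injury libraries or distal library 1 or 2. Without the 3 libraries poor in genes of every cell 3 receptor IDs were under it (HTR1A, GALR1 and DRD2), and SSTR2 and drd4-rs were not. Those under it included SSTR2, drd4-rs and DRD3 with the covariate, and SSTR2, drd4-rs and DRD2 with quantile normalisation. The count over all genes is not given here without the 3 libraries, for either change of filter or without a trend. No excess of receptors is therefore read from these counts.

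The study dissected both tissues from the same fish, but whether a shared replicate number marks the same fish is not stated. A check of the values did not show such pairing and cannot exclude it, as it rests on 5 correlations. Between libraries of the same number the deviations correlated at 0.0523, 0.00531, -0.0465, -0.00212 and 0.133, and 2 of 5 libraries correlated best with their own number. The fit with the number as a replicate block also left out injury library 6, which has no partner. In it 675 genes and 2 receptor IDs (SSTR2 and DRD2) had an unadjusted p under 0.05, and 0 genes passed after adjustment. Leaving out that library without a block gave 646 genes, the same 2 receptor IDs and the same differences, so the turned signs of ADRA2A (0.168), HTR2A (-0.192) and OPRM1 (-0.129) in the block fit come with the loss of that library.

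Of the 30 named IDs 12 kept the sign of the difference in every alternative run. The median over all genes moved by more than 0.1 with a mean of at least 1 FPKM (-0.208), the block fit or without injury library 6 alone (-0.162 in both), without the 3 libraries (0.189) and without injury library 2 (0.064), 3 (0.076) or 5 (-0.186) or distal library 5 (0.103), against -0.037. Signs turned without the 3 libraries for ADRA2A (0.568), htr1b (-0.486), ADRA2B (0.336), CRHR1 (-0.367), ADRA1A (-0.627), TACR1 (0.603) and htr7a (0.112). With a pseudocount of 0.1 they turned for ADRA2A (0.005), htr7a (0.297) and npy7r (-0.112), with voom for ADRA2A (0.09), htr7a (0.694), npy7r (-0.045) and htr7c (0.113), with quantile normalisation for ADRA1A (-0.031) and OPRM1 (-0.004) and with the covariate for htr7a (0.002). When 1 library was left out the difference ranged from -0.464 to 0.378 for ADRA2A, -0.064 to 0.596 for hrh3, -1.086 to 0.217 for htr1aa, -0.543 to 0.63 for HTR2A, -0.001 to 0.476 for CRHR1, -0.546 to 0.527 for ADRA1A, -0.782 to 0.274 for TACR1, -0.051 to 1.134 for ADRA1B, -0.686 to 0.156 for adora3a.1, -0.459 to 0.373 for sstr1b, -0.129 to 0.79 for OPRM1, -0.334 to 0.628 for htr7a, -0.149 to 0.758 for ADORA2B, -0.661 to 0.32 for ADRB1, -0.418 to 0.389 for npy7r and -0.478 to 0.292 for htr7c. The cause of these turns was not tested beyond the libraries left out.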
